A study of Mus musculus with 9 samples.

Results

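Activated macrophages can send the amino acid L-arginine down competing routes. The arginases Arg1, a cytosolic enzyme, and Arg2, a mitochondrial one, split arginine into ornithine and urea, and ornithine feeds polyamine and proline synthesis. Nos2, the inducible nitric oxide synthase, turns the same substrate into nitric oxide and citrulline. In mouse macrophages Arg1, Chil3 (also called Ym1, a secreted chitinase-like protein) and Retnla (also called Fizz1 or RELMalpha, a secreted resistin-like protein) are the usual markers of alternative activation by IL-4 and IL-13, and Nos2 is the usual marker of classical activation. Chil3 is also made by neutrophils and by inflammatory monocytes.

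These 5 genes, Arg1, Arg2, Nos2, Chil3 and Retnla, were taken by name from 23747 genes in a sNuc-seq (RNA sequencing of single nuclei) data set of C57BL/6 mouse hearts, with 3 mice in each of 3 groups. Sham mice were gavaged with vehicle for 7 days and had a needle passed without ligation. I/R mice had the same vehicle, then ligation of the left anterior descending artery for 30 min and reperfusion for 24 h. SBP mice received Shexiang Baoxin Pill, called MUSKARDIA in the labels, for the 7 days before the same ischemia and reperfusion. All animals were young adults, and their sex is not given in the sources used here. Tissue was taken from below the level of the ligation. Transcripts were counted by unique molecular identifiers (UMIs), and nuclei were told apart by droplet barcodes. The 9 libraries held 49171 nuclei with a median of 1540 to 2031 UMIs per nucleus, and any pair of libraries shared 4 to 14 barcodes.

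Cell types were rebuilt from marker genes with these 5 genes and 9 of their relatives left out of the clustering, and every type name means nuclei that resemble the type. After removal of 85 marked doublets there were 9579 myeloid nuclei, which fell into 14 subclusters. Those that could be named were resident macrophage-like, injury macrophage-like (Gpnmb, Spp1 and Fabp5 among the markers), monocyte-like, neutrophil-like, dendritic-like and cycling nuclei. Resident macrophage-like nuclei made up 38.4% ± 10.8 (SD, n = 3) of the sham myeloid nuclei, against 28.3% ± 17.9 in I/R and 31.6% ± 11.4 in SBP. Injury macrophage-like nuclei made up 0.414%, 31.4% ± 26.1 and 30.3% ± 11.0, and monocyte-like nuclei 1.87%, 11.1% ± 3.34 and 18.8% ± 4.26. The injury macrophage-like share differed widely among the I/R mice, at 57.8%, 5.69% and 30.7%, as did the resident macrophage-like share, at 9.88%, 29.3% and 45.7%. In I/R replicates 2 and 3 the resident macrophage-like share was mostly subcluster 7, which held 13 sham nuclei. Subcluster 5, the main resident macrophage-like part of sham, gave only 6 and 41 nuclei in these mice before doublet removal. Subclusters 2 and 6, which held 51.7% ± 11.5 of the sham nuclei but 2.52% in I/R and 8.08% in SBP, stayed unnamed. Subcluster 2 was led by Ptchd1 and genes of antigen presentation, and subcluster 6 by cardiomyocyte genes. Any level measured over all myeloid nuclei therefore moved together with this mix.

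Libraries of I/R mice stood apart in this division. Subcluster 13, led by Saa3, Slc7a11, Nos2 and Acod1, drew 90.7% of its nuclei from I/R replicate 2 and held 44.7% of the myeloid nuclei of that mouse, so it was given no cell type name. Subcluster 0, the Cd5l-led part of the injury macrophage-like class, drew 85.8% of its nuclei from I/R replicate 1. Subcluster 7, a part of the resident macrophage-like class with Cd163 among its leading genes, held 848 I/R nuclei, nearly all of replicates 2 and 3, and 13 sham nuclei. The division was also sensitive to the starting seed of the clustering. With another seed, chosen as an alternative after seeing the data, 99.9% of the nuclei kept their cell type and 87.2% of the myeloid nuclei their subtype. Over the nuclei of a group, the other seed gave 302 resident macrophage-like nuclei in sham in place of 676, 1384 unnamed ones in place of 1018, 32 injury macrophage-like ones in place of 7, and 288 monocyte-like nuclei in I/R in place of 568.

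Arg1 was the member with the largest change in the injured heart. It was not detected in any sham myeloid nucleus (0 of 1874 nuclei, which allows a share of up to 0.160% of nuclei with an Arg1 UMI, a limit on detection and not on nuclei expressing the gene). In I/R myeloid nuclei the Arg1 level was 170.9, 692.8 and 341.0 CPM (counts scaled to a fixed total of UMIs of those nuclei) in replicates 1 to 3. The SBP replicates had Arg1 levels of 334.5, 146.7 and 229.3 CPM. All 6 injured hearts lay above all 3 sham hearts, whereas the I/R and SBP ranges overlapped. Against a floor of 3 UMIs over the sham group, Arg1 was at least 372-fold higher in I/R and at least 209-fold higher in SBP. On the log2(CPM + 1) scale the Arg1 difference from sham was 8.46 (SE 0.46, adjusted p = 7.56e-06, limma) for I/R and 7.83 (SE 0.46, adjusted p = 1.4e-05, limma) for SBP.

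Arg2 also appeared with injury. It too had 0 UMIs in sham myeloid nuclei. The Arg2 level was 16.8, 51.5 and 17.1 CPM in the I/R replicates and 11.9, 10.3 and 11.3 CPM in the SBP replicates. The 3 SBP mice lay close together and below every I/R mouse, an order that was not counted over all genes. Arg2 was at least 27.8-fold higher in I/R and at least 11.1-fold higher in SBP than the sham floor, with log2 differences of 4.71 (SE 0.45, adjusted p = 5.21e-05, limma) and 3.61 (SE 0.45, adjusted p = 0.000454, limma). The Arg2 gene overlaps Vti1b and Gm48780 on the other strand, and the sources used here do not say whether counting used the strand, so reads of these neighbours may be included.

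Chil3 was raised in the injured hearts as well, with a spread between I/R mice wider than that of Arg1. Sham myeloid nuclei held 1 Chil3 UMI in all. The Chil3 level was 9.6, 188.4 and 113.2 CPM in the I/R replicates and 41.9, 40.1 and 29.7 CPM in the SBP replicates. Every injured heart was above every sham heart, and I/R replicate 1 was below the whole SBP group. Endothelial nuclei of the same hearts held Chil3 UMIs too. In the SBP replicates there were 0.0809, 0.0845 and 0.0609 Chil3 UMIs per myeloid nucleus and 0.0342, 0.0565 and 0.0327 per endothelial nucleus. In I/R replicate 1 these values were 0.0204 and 0.0175. The part of background in the myeloid level was not tested. The Chil3 ratio of summed UMIs, I/R to sham, was 264 with a counting interval of 47.3 to 10442, wide because of the single sham UMI. The log2 differences of Chil3 from sham were 5.71 (SE 0.91, adjusted p = 0.00383, limma) in I/R and 4.99 (SE 0.91, adjusted p = 0.00979, limma) in SBP. With 1 mouse left out the I/R difference ran from 4.87 to 6.98, with a largest adjusted p of 0.0231 (limma).

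Thus 3 of the 5 members were called higher in I/R than in sham myeloid nuclei, where 17.1% of the 10892 genes tested were called in either direction. The same 3 were called in SBP against sham, where 12% of genes were called. These contrasts share the sham mice and are not independent of each other. The 3 passed the filter on low values through the injured groups alone, so they had to differ from sham. Nos2 and Retnla did not pass that filter. Leaving out I/R replicate 1 or 2 kept 3 calls in each of these contrasts. With a pseudocount of 5 CPM Chil3 lost its call in SBP against sham (adjusted p = 0.0514, limma).

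**Figure D1:**
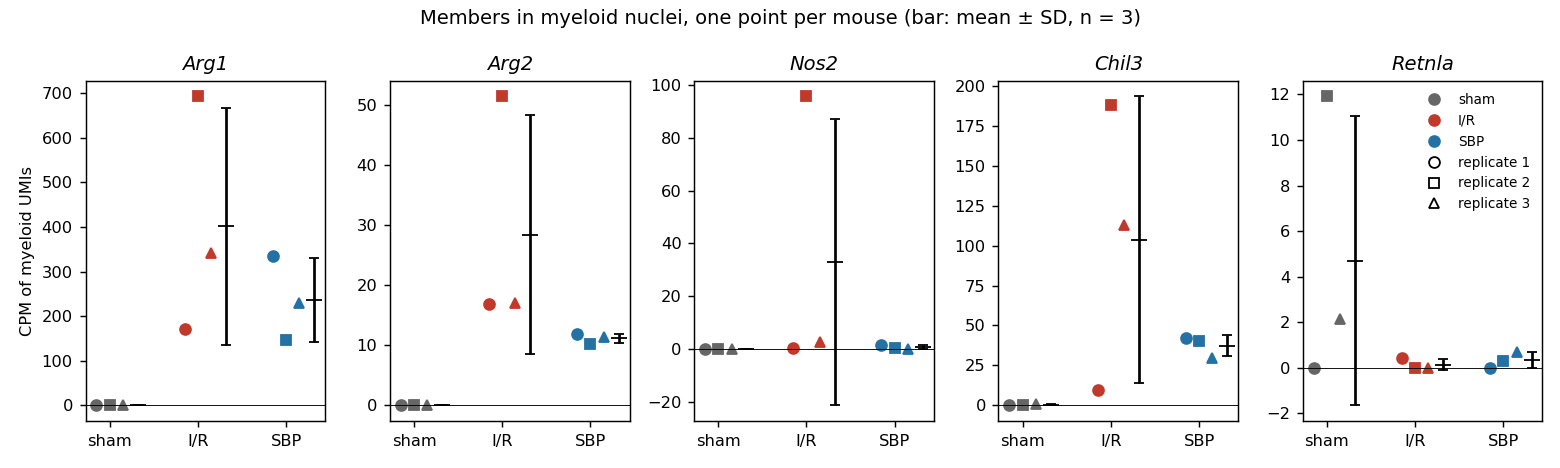
Level of each member in myeloid nuclei in CPM of the UMIs of those nuclei, one point per mouse (grey sham, red I/R, blue SBP; circle, square and triangle for replicates 1, 2 and 3), with mean ± SD over 3 mice as bars and a separate linear axis for each gene. Arg1, Arg2 and Chil3 are at or near 0 in sham and above it in all 6 injured hearts, and Nos2 stands out in I/R replicate 2 alone.

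Whether pre-treatment with SBP changed the members was asked by comparing SBP with I/R. None of the 3 tested members was called in myeloid nuclei, where 0% of the 10892 genes were called by limma, 415 genes had an unadjusted p under 0.05, and the smallest adjusted p was 0.263. The log2 difference, SBP against I/R, was -0.63 for Arg1 (95% interval -1.65 to 0.39), -1.10 for Arg2 (-2.07 to -0.12, unadjusted p = 0.0309 and adjusted p = 0.998, limma) and -0.71 for Chil3 (-2.78 to 1.35). The intervals of Arg1 and Chil3 include 0. The size of these gaps rested largely on I/R replicate 2. The mean Arg1 level in SBP was 0.590 of that in I/R, and 0.925 with that mouse left out. For Arg2 the ratio of the means was 0.393 and became 0.659, and for Chil3 it was 0.359 and became 0.606. The log2 differences ran, with 1 mouse left out, between -1.13 and -0.09 for Arg1, the extremes being without I/R replicate 1 and without I/R replicate 2, and between -1.37 and -0.55 for Arg2, where they came without I/R replicate 3 and without I/R replicate 2. For Chil3 the difference was -1.98 without I/R replicate 1 (adjusted p = 0.0717, limma), -0.28 without I/R replicate 3 and 0.13 without I/R replicate 2, so its sign turned with the last of these mice. With I/R replicate 1 left out 10 of 10725 genes (0.0932%) were called in SBP against I/R, none of them a member.

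Measured over all nuclei of the heart, the comparison also takes in how many myeloid nuclei each library held. Whole-heart Arg1 was 51.8, 181.6 and 54.4 CPM in I/R and 40.3, 36.2 and 29.2 CPM in SBP, so every SBP mouse was below every I/R mouse. Whole-heart Arg2 did the same, at 6.7, 15.7 and 4.3 CPM in I/R against 3.4, 2.9 and 2.2 CPM in SBP. Both reached the smallest p that 3 against 3 mice allow (two-sided exact permutation test, p = 0.1). Whole-heart Nos2 was also lower in every SBP mouse, at 1.6, 1.8 and 1.7 CPM against 2.1, 27.4 and 2.1 CPM in I/R (exact permutation p = 0.1), by a narrow margin apart from I/R replicate 2. Whole-heart Chil3 levels overlapped, at 5.7 to 78.2 CPM in I/R and 12.1 to 21.8 CPM in SBP (exact permutation p = 0.4). How many of all genes separate SBP from I/R in this way was not counted, so these orders are not read as particular to the members.

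The share of myeloid nuclei with at least 1 UMI of a member gave the same order of groups. For Arg1 this share was 24.3% ± 13.7 (SD, n = 3) in I/R and 15.6% ± 3.58 in SBP, for Arg2 4.86% ± 3.18 and 2.01% ± 0.157, and for Chil3 11.3% ± 10.0 and 5.56% ± 1.69. Nuclei with at least 1000 UMIs were also thinned to 1000, and those below were left out. This left out 32, 64 and 37 nuclei of I/R replicates 1 to 3 and 14, 35 and 11 of the SBP replicates. Neutrophil-like nuclei were shallow, with a median of 968 UMIs in subcluster 12. In the thinned nuclei the Arg1 share was 17.9% in I/R and 11.5% in SBP. Each of these shares was above every sham mouse (exact permutation p = 0.1). For SBP against I/R the exact permutation p was 0.4 for Arg1, 0.1 for Arg2 (0.3 after thinning) and 0.5 for Chil3. The gap, SBP minus I/R, of -8.73 percentage points for Arg1 was -1.20 without I/R replicate 2 and -14.5 without I/R replicate 1. For Arg2 the gap of -2.86 points was -1.02 without I/R replicate 2, and for Chil3 the gap of -5.74 points was -0.487 without I/R replicate 2 and -10.5 without I/R replicate 1.

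Arg1 was spread very unevenly among the myeloid subtypes. Injury macrophage-like nuclei had Arg1 levels of 192.5, 823.9 and 638.1 CPM in I/R and 626.7, 151.8 and 550.1 CPM in SBP. The low values were those of I/R replicate 1 and SBP replicate 2, the mice with the most such nuclei (1335 and 691). Parts of the class differed from each other. Arg1 in subcluster 10, led by Il7r and Pdpn, was 601.1, 1071.5 and 812.8 CPM in I/R. In SBP it was 1082.7, 182.5 and 714.6 CPM, so the groups overlapped. Pooled over mice, 46.4% of 440 I/R nuclei and 28.0% of 690 SBP nuclei had an Arg1 UMI. SBP replicate 2, the low SBP mouse, gave 466 nuclei before doublet removal, so the pooled SBP share leans on it. In the Cd5l-led subcluster 0 the Arg1 level was 139 and 143 CPM in the 2 I/R mice and 106 CPM in the 1 SBP mouse with at least 20 nuclei. Monocyte-like nuclei had Arg1 levels of 317.2, 456.3 and 443.3 CPM in I/R and 650.6, 302.0 and 329.5 CPM in SBP, so these groups overlapped too. Subcluster 13 held the highest Arg1 level among I/R mice with at least 20 nuclei of a subcluster, 1872 CPM in replicate 3 (23 nuclei) and 1162 CPM in replicate 2 (629 nuclei, 59.6% of them with a UMI). Neutrophil-like nuclei had an Arg1 mean of 186 CPM ± 111 in I/R, and dendritic-like nuclei one of 71.2 CPM ± 73.7. With another clustering seed the I/R mean of Arg1 was 502 CPM in injury macrophage-like nuclei, where it had been 551 CPM, and 529 CPM in monocyte-like nuclei, where it had been 406 CPM.

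Within the injury macrophage-like class SBP and I/R could be compared in 3 mice each, although the mix within the class differed between mice. Nearly all of the 1155 I/R nuclei of subcluster 0 came from replicate 1. Before doublet removal subcluster 0 held 1133, 2 and 21 nuclei of I/R replicates 1 to 3, and subcluster 10 held 136, 54 and 251. Subcluster 10 gave most of the SBP nuclei (690) and was also the larger of these 2 in I/R replicates 2 and 3. No member was called, and 0% of the 8015 genes tested were called by limma (300 at an unadjusted p under 0.05). The log2 difference, SBP against I/R, was -0.29 for Arg1 (95% interval -1.48 to 0.90), -1.09 for Arg2 (-2.48 to 0.30) and -0.06 for Chil3 (-1.21 to 1.09). For Arg1 the difference ran from -0.91 with I/R replicate 1 left out to 0.33 with SBP replicate 2 left out, and it was 0.09 with I/R replicate 2 left out, so its sign depended on single mice. With 1 mouse left out, the difference ran from -1.53 to -0.47 for Arg2 and from -0.67 to 0.20 for Chil3. With another clustering seed the difference was -0.30 for Arg1, -0.71 for Arg2 and 0.07 for Chil3. Sham hearts had 7 such nuclei, so no comparison with sham was made.

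Resident macrophage-like nuclei, present in all 9 hearts, had far lower Arg1 levels. The Arg1 level was 14.6, 114.4 and 30.0 CPM in I/R, 16.3, 16.7 and 11.8 CPM in SBP and 0 in all sham mice. Most of these nuclei were of subcluster 5 in sham, SBP and I/R replicate 1 and of subcluster 7 in I/R replicates 2 and 3. A UMI of Arg1 was present in 7.46% of them in I/R (exact 95% binomial interval 5.98 to 9.16) and in 5.30% (4.64 to 6.02) of the endothelial nuclei of the same hearts, given here as a background level. In SBP the Arg1 shares were 2.84% (1.81 to 4.22) and 2.39% (1.96 to 2.89). Resident macrophage-like nuclei were the deeper ones, with a median of 1638 to 1807 UMIs in the I/R mice against 1301.5 to 1366.5 UMIs in endothelial nuclei. These intervals pool the nuclei of 3 mice and are no test of the difference. By mouse the I/R Arg1 shares were 2.63%, 12.6% and 5.29% in resident macrophage-like against 2.05%, 10.6% and 3.57% in endothelial nuclei, higher in 3 of 3 mice. The UMIs per nucleus were 0.0263, 0.257 and 0.0592 against 0.0221, 0.118 and 0.0363. The part of depth and of free RNA in this gap was not tested. The Chil3 share was below that of endothelial nuclei in 2 of 3 I/R mice, at 0.439%, 13.8% and 4.02% against 1.75%, 12.1% and 5.26%. Whether Chil3 here was above background was not tested. No member reached the filter on low values in these sums, so none was tested, and limma called 1.31% of the 7661 genes tested in I/R against sham, 0.966% in SBP against sham and 0% in SBP against I/R (384 at an unadjusted p under 0.05).

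Arg2 and Chil3 had their highest I/R subtype means in neutrophil-like nuclei, a small class led by S100a8, S100a9 and Retnlg. The Arg2 level there was 107.3, 283.4 and 163.4 CPM in the I/R replicates. Monocyte-like nuclei had an Arg2 mean of 28.5 CPM ± 18.6 in I/R and injury macrophage-like nuclei one of 20.6 CPM ± 3.52. Every I/R mouse had more Arg2 in neutrophil-like than in monocyte-like nuclei. These values rest on 27, 96 and 63 neutrophil-like nuclei with 4, 32 and 14 Arg2 UMIs. With another clustering seed the I/R mean of Arg2 in neutrophil-like nuclei was 196 CPM, where it had been 185 CPM.

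Chil3 in neutrophil-like nuclei was 80.5, 664.1 and 969.0 CPM in I/R, and 258.8 and 89.5 CPM in the 2 SBP mice with at least 20 such nuclei. In monocyte-like nuclei Chil3 was 11.4, 467.2 and 489.7 CPM in I/R and 147.1, 62.7 and 77.3 CPM in SBP. Injury macrophage-like nuclei had a Chil3 mean of 31.8 CPM ± 20.2 in I/R, against 41.5 CPM ± 34.4 in the endothelial nuclei of the same hearts. Their Chil3 shares, 2.17% to 7.55% of nuclei against 1.75% to 12.1%, overlapped across mice. Depth differed, with medians of 1854.5 to 2165 UMIs in the subclusters of the class. Endothelial nuclei had medians of 1301.5 and 1311 UMIs in I/R replicates 1 and 2. Whether Chil3 in this subtype was above background was not tested. With the other clustering seed the I/R mean of Chil3 was 611.5 CPM in place of 571.2 in neutrophil-like and 362.0 CPM in place of 322.8 in monocyte-like nuclei. I/R replicate 1 was the lowest I/R mouse in all 3 subtypes. In that mouse the Chil3 share over all myeloid nuclei was 1.86%, about the 1.75% of its endothelial nuclei, whereas its neutrophil-like nuclei had the 80.5 CPM given above. The part of background in these values was not tested.

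**Figure D2:**
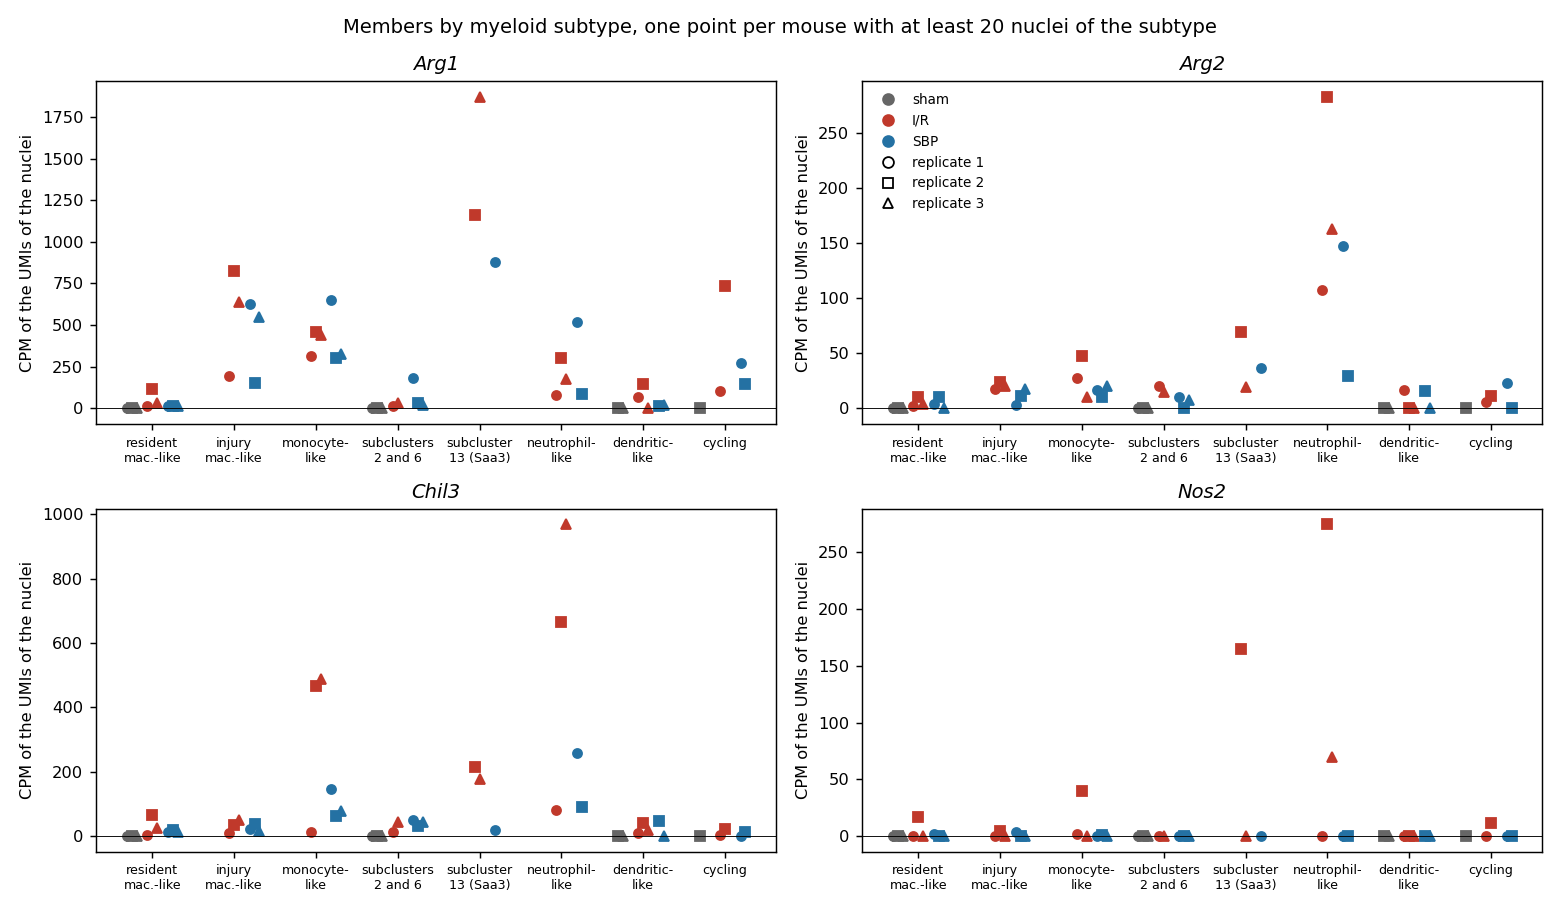
Level of Arg1, Arg2, Chil3 and Nos2 in CPM (linear axes) in each myeloid subtype, one point per mouse with at least 20 nuclei of the subtype, colours and symbols as for the plot of all myeloid nuclei. Subclusters 2, 6 and 13 carry no type name. Arg1 is highest in subcluster 13 and high in injury macrophage-like and monocyte-like nuclei, Arg2 and Chil3 have their top I/R values in neutrophil-like nuclei, and Nos2 stands out in I/R replicate 2.

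Nos2 in myeloid nuclei came mainly from 1 mouse. No Nos2 UMI was found in sham myeloid nuclei. The I/R replicates had 2, 292 and 6 Nos2 UMIs, or 0.4, 95.7 and 2.6 CPM. The SBP replicates had 2, 1 and 0 Nos2 UMIs. The I/R mean of 32.9 CPM ± 54.4 fell to 1.52 CPM without replicate 2. In that mouse 228 of the 292 Nos2 UMIs were in subcluster 13 (165.1 CPM), 31 in neutrophil-like nuclei (274.5 CPM), 16 in resident macrophage-like and 11 in monocyte-like nuclei. The 6 UMIs of I/R replicate 3 were all in neutrophil-like nuclei. Nos2 is one of the leading genes of subcluster 13 and played no part in forming it.

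In I/R replicate 2 some myeloid nuclei held both Arg1 and Nos2. Of 119 Nos2-positive myeloid nuclei, 55 (46.2%) also had an Arg1 UMI, against 38.7% of the Nos2-negative ones. Chil3 was present in 37.0% and 20.4% of them, and Arg2 in 17.6% and 7.69%. Nos2-positive nuclei were somewhat deeper, with a median of 1944 UMIs against 1725.5, and the part of depth in these shares was not tested. Most Nos2 UMIs of that mouse were in subcluster 13, where Arg1 was high too, and shares within it were not compared. In the other mice no Nos2-positive myeloid nucleus had Arg1 (0 of 2 in I/R replicate 1, 0 of 5 in I/R replicate 3 and 0 of 3 over SBP). Over all I/R myeloid nuclei, 16.3% of the 1064 Arg1-positive nuclei had Chil3 and 7.71% had Arg2, against 7.68% and 3.83% of the rest. In SBP the Chil3 shares were 8.92% and 5.69%, and the Arg2 shares 2.11% and 1.94%. Pooled shares also carry the differences between mice. By mouse the Chil3 shares of Arg1-positive nuclei and of the rest were 3.74% and 1.59%, 23.3% and 20.9%, and 15.3% and 8.91% in the I/R replicates, and 8.0% and 4.34%, 13.02% and 6.70%, and 2.75% and 4.48% in the SBP replicates. The Arg1-positive nuclei had the higher Chil3 share in 3 of 3 I/R and 2 of 3 SBP mice, and the higher Arg2 share in 3 of 3 I/R and 1 of 3 SBP mice.

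Retnla, unlike the other alternative activation markers, had its highest group level in sham, on few UMIs. Its levels in sham myeloid nuclei were 0, 11.9 and 2.2 CPM (0, 13 and 3 UMIs), against 2 UMIs over all I/R and 2 over all SBP myeloid nuclei. Of the 16 sham UMIs, 12 lay in 4 nuclei of dendritic-like subcluster 3, which held 23 sham nuclei. The lead of sham in myeloid nuclei rested on replicate 2, since without it the share of nuclei with a Retnla UMI in SBP was 0.00628 percentage points above sham. For this share the exact permutation p was 0.4 for I/R against sham and 0.7 for SBP against sham. Over the whole heart Retnla was 0.7, 2.7 and 1.0 CPM in sham, 0.3, 0.1 and 0.2 CPM in I/R and 0, 0.1 and 0.2 CPM in SBP. Each sham mouse was above each injured mouse (exact permutation p = 0.1, the smallest possible, for either group against sham), on totals of 61, 11 and 4 UMIs. How many of all genes show this order was not counted. Outside the myeloid nuclei, sham endothelial nuclei held 16 and fibroblast nuclei 14 of the Retnla UMIs.

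Chil3, higher after injury, and Retnla, highest in sham on few UMIs, are the 2 members with a RefSeq promoter sequence here (GRCm38.p6). The 250 bases before each start site are shown to set their motif letters side by side. Capitals mark matches to TTCNNNNGAA (STAT6 type), TTGCNNAA (C/EBP type) or TATAAA (the TATA box). The AP-1 type motif, TGANTCA, was searched as well, each motif on both strands. The Chil3 window is chr3:106167565-106167814 on the minus strand and the Retnla window chr16:48842359-48842608 on the plus strand.

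Chil3: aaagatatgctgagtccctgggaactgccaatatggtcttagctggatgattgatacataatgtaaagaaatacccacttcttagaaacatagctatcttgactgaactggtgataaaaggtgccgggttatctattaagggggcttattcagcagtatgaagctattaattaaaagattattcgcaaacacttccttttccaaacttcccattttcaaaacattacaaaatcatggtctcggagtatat

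Retnla: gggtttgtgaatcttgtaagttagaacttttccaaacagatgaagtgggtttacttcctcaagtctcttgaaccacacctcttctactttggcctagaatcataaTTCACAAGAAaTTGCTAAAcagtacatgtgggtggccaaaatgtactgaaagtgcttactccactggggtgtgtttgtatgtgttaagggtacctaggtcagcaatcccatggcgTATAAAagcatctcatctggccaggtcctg

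The Retnla window held a STAT6-type match (TTCACAAGAA) at -145 to -136, followed after 1 base by a C/EBP-type match (TTGCTAAA) at -134 to -127, and a TATAAA at -30 to -25, counted from the RefSeq start. The Chil3 window held none of the 4 motifs. Of 32851 mouse promoter windows of this length, 5.85% held the STAT6-type letters, 9.56% the C/EBP-type letters, 6.75% the AP-1-type letters and 12.4% TATAAA. By the GRCm38 gene annotation Retnla lies on chromosome 16 (48842551 to 48844461), so its start there falls inside the printed window and the last part of the window, TATAAA included, lies within the gene. In the same annotation Chil3 lies on chromosome 3 (106147554 to 106167564), Arg1 on chromosome 10 (24915221 to 24927484), Arg2 on chromosome 12 (79130777 to 79156301) and Nos2 on chromosome 11 (78920787 to 78960254), and 3′ reads were counted over each gene. Chil3 has a close copy, Chil4, that was not analysed here, and reads the copies share make the Chil3 count uncertain.

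Outside the myeloid nuclei, Arg1 and Chil3 UMIs were found at a low and similar rate in every abundant cell type of an injured heart. In I/R replicate 2 an Arg1 UMI was present in 10.6% of endothelial, 10.0% of fibroblast and 8.79% of cardiomyocyte nuclei, although cardiomyocyte nuclei were far deeper (median 4094.5 UMIs against 1311 in endothelial nuclei). Myeloid nuclei of that mouse held 1.503 Arg1 UMIs per nucleus, and the other 3 types 0.118, 0.112 and 0.0943. The ratio of Arg1 to Chil3 UMIs was 0.833, 0.794 and 0.781 in those 3 types and 3.68 in myeloid nuclei. I/R replicate 3 gave 0.586, 0.674 and 0.600 against 3.01. I/R replicate 1 was less even, at 1.26, 2.72 and 2.18 against 17.7. An Arg1-positive myeloid nucleus of the I/R group held 3.503 UMIs on average and up to 39, and an Arg1-positive endothelial nucleus 1.08.

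**Figure D3:**
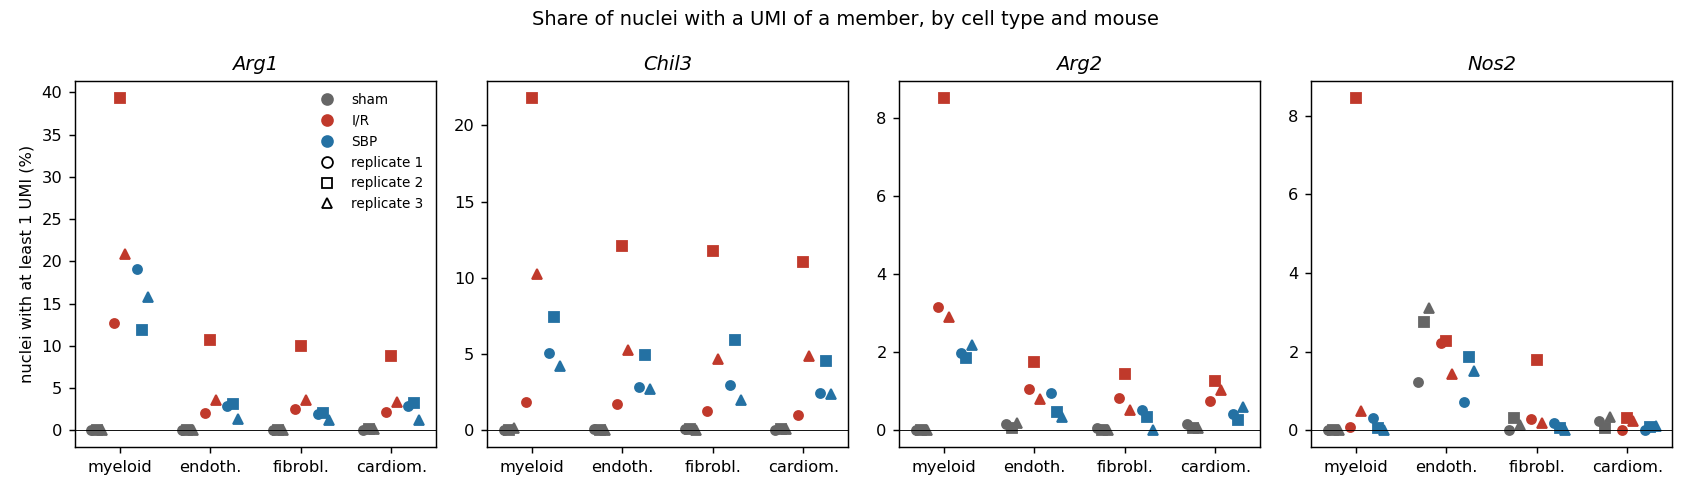
Percent of nuclei with at least 1 UMI of Arg1, Chil3, Arg2 or Nos2 in the 4 most abundant cell types, one point per mouse, colours and symbols as above, each gene on its own linear axis. Arg1 shares reach 39.4% in myeloid nuclei and stay alike in the other 3 types of a mouse, Chil3 differs less between types, and Nos2 is highest in endothelial nuclei in all mice but I/R replicate 2.

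The members were also called in several of these types, where, as in myeloid nuclei, Arg1, Chil3 and, where tested, Arg2 passed the filter on low values through the injured groups and so had to differ from sham. Arg1 and Chil3 were tested in all 3 types, and Arg2 in endothelial and fibroblast nuclei but not in cardiomyocyte nuclei, where it did not pass. Sham endothelial nuclei held 1, 6 and 2 UMIs of Arg1, Arg2 and Chil3, sham fibroblast nuclei 0, 1 and 2, and sham cardiomyocyte nuclei 4, 4 and 2. Endothelial nuclei had 3 members called in I/R against sham (Arg1, Arg2 and Chil3, log2 differences 4.63, 2.13 and 4.67) where 3.18% of 12220 genes were called, and 2 in SBP against sham (Arg1 and Chil3) where 2.1% were called. The Arg2 call was lost without sham replicate 2 (adjusted p = 0.0842, limma), sham replicate 3 (0.0525) or I/R replicate 2 (0.0943). Fibroblast nuclei had the same 3 called in I/R, at 4.41, 2.03 and 3.95 (11.7% of 13070 genes called), and Arg1 and Chil3 in SBP (6.13%). There the Arg2 call in I/R was lost without sham replicate 2 (adjusted p = 0.0636, limma) or 3 (0.0896), and Arg2 did not reach the filter on low values with any 1 injured mouse left out. The Chil3 call in SBP was lost without sham replicate 1 (0.0504), sham replicate 3 (0.0604) or SBP replicate 2 (0.0665), or with a pseudocount of 5 CPM (0.0872). Cardiomyocyte nuclei had 1 member called in I/R, Arg1 at 2.85 (0.808% of 12879 genes), and none in SBP against sham (0.14%), where the adjusted p was 0.0814 for Arg1 and 0.0966 for Chil3 (limma) and 1726 genes had an unadjusted p under 0.05. The Arg1 call in I/R was lost with any 1 sham mouse left out (adjusted p = 0.0709, 0.0582 and 0.0922 without replicates 1, 2 and 3, limma) and with a pseudocount of 5 CPM (0.0817). The Chil3 difference of 3.01 in I/R cardiomyocytes had an adjusted p of 0.0573 (limma). These Arg1 and Chil3 levels are given as the background of each library, and whether any nucleus outside the myeloid ones makes either gene was not tested. SBP against I/R gave 0 called members in all 3 types, where 0% of the genes were called (636, 462 and 275 at an unadjusted p under 0.05 in endothelial, fibroblast and cardiomyocyte nuclei).

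Nos2 was found outside the myeloid nuclei in sham hearts as well. Endothelial nuclei held it in all 9 mice, at 8.5, 19.5 and 20.1 CPM in sham, 13.8, 14.4 and 8.2 CPM in I/R and 4.7, 12.5 and 8.9 CPM in SBP. The groups overlapped, and no contrast was called. The log2 difference of endothelial Nos2 was -0.29 (95% interval -1.13 to 0.55) for I/R against sham, -0.78 (-1.62 to 0.06) for SBP against sham and -0.49 (-1.33 to 0.35) for SBP against I/R. Of 272 endothelial Nos2 UMIs, 238 (87.5%) lay in cluster 6, whose leading genes include Rgcc and Cd300lg, known from capillary endothelium. Cluster 6 was picked as the endothelial cluster with the highest Nos2 share over all mice. It was also the largest one, with 7861 nuclei before doublet removal. Its Nos2 share was 2.13% to 4.06% in the sham mice. In 9 of 9 mice this share was above that of the other endothelial nuclei of the heart. The same values picked the cluster, so this count is no independent support. Cluster 6 was the shallower part (median 947 to 1207 UMIs against 1315 to 1842), and the part of depth was not tested. Nos3, the endothelial nitric oxide synthase, gave 2138, 1979 and 2414 UMIs over the sham, I/R and SBP hearts, against 139, 456 and 76 for Nos2.

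Fibroblast nuclei of I/R replicate 2 held 52 Nos2 UMIs, against at most 7 in any other mouse. Of these, 47 were in the cluster led by Adam12, Tnc and Postn, genes of activated fibroblasts, where 21 of 432 nuclei were positive. The 26 Nos2-positive fibroblast nuclei of that mouse were deep (median 3936.5 UMIs against 1806). They held 6.5 UMIs of 11 myeloid markers per nucleus against 2.02 in the other fibroblast nuclei, and 35.8 UMIs of 7 fibroblast markers against 21.0. A myeloid marker UMI was present in 88.5% of the 26 and in 71.0% of the others, and a Chil3 UMI in 26.9% and 11.5%. The 11 myeloid markers include Vcan, which the study lists among genes lowered with SBP in fibroblasts. The other fibroblast nuclei were those of all fibroblast clusters, whereas the Adam12-led cluster was deep, with a median of 3118 UMIs over all mice. The part of depth, of cluster and of mixed nuclei in this signal was not tested.

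**Figure D4:**
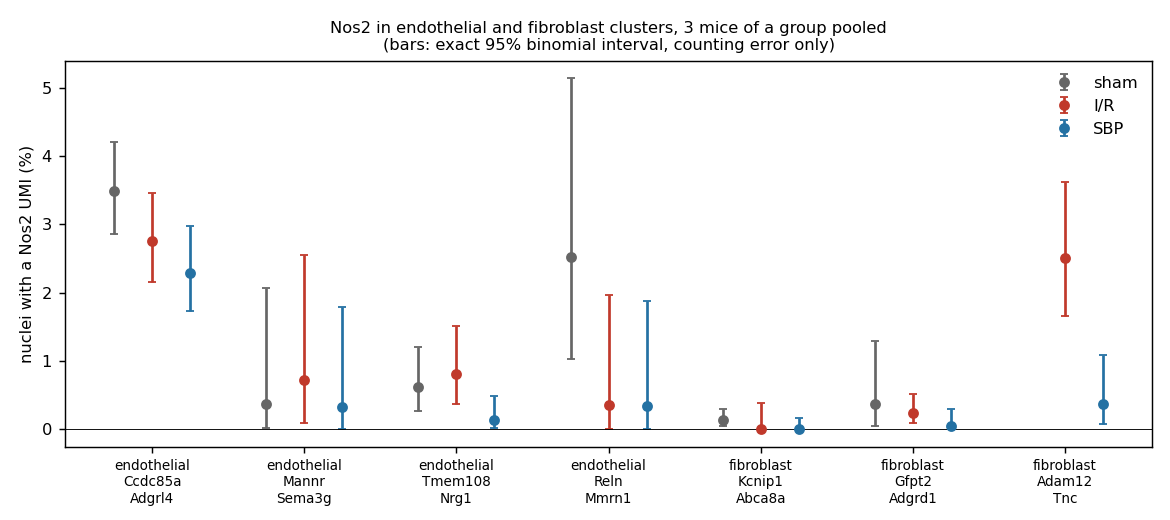
Percent of nuclei with a Nos2 UMI in each endothelial and fibroblast cluster, labelled by 2 of its leading genes, with the 3 mice of a group pooled (grey sham, red I/R, blue SBP) and exact 95% binomial bars that cover counting error only; groups with under 20 nuclei are left out. The Ccdc85a-Adgrl4 cluster (cluster 6) is the highest endothelial cluster in every group, and the Adam12-Tnc cluster is raised in I/R, where I/R replicate 2 supplies most of the signal.

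The other genes of the arginine and activation pathways were taken from lists. Of the arginine transport and urea cycle list, 5 genes were tested in myeloid nuclei and 2 were called higher in I/R than in sham, where 17.1% of all 10892 genes were called. They were Slc3a2, the heavy chain of amino acid exchangers, with a log2 difference of 1.16 (SE 0.21), and Slc7a7, a light chain that exports arginine, with 0.69 (SE 0.21). Slc7a2, the arginine importer that works with Nos2 and Arg1 in activated macrophages, had 2.37 (SE 0.73) and missed the threshold (adjusted p = 0.0524, limma). The list's median was 0.69, against 0.09 over all genes tested. None of 10 tested nitric oxide synthase, cofactor and inhibitor genes was called (median 0.02).

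Downstream of arginase, 7 of 20 tested genes of the ornithine, polyamine and proline list were called, 6 higher and 1 lower, against 17.1% called over all genes, with a list median of 0.25. Odc1, which makes putrescine from ornithine and is the rate-limiting step of polyamine synthesis, was 1.71 higher (SE 0.46), Azin1, which protects Odc1 from breakdown, 1.43 (SE 0.25), and Srm, the spermidine synthase, 1.42 (SE 0.32). Oat and Aldh18a1, of the proline arm, had differences of 0.58 and 0.61 and were not called. Gatm, which uses arginine for creatine synthesis, was the gene that fell (fell by 1.30 on the log2 scale, SE 0.38). In SBP against sham, where 12% of all genes were called, 5 of the 20 were called higher and 0 lower, with Odc1 at 1.80 and Azin1 at 1.92.

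The other alternative activation genes did not move as 1 group. Of 11 tested, 3 were called higher and 2 lower in I/R than in sham, with a list median of -0.28. Il4ra, the receptor chain shared by IL-4 and IL-13, rose by 2.15 (SE 0.39) and Tgm2, a transglutaminase, by 2.09 (SE 0.39), whereas the lectin Mgl2 fell by 2.96 (SE 0.52). Of 10 classical activation genes tested, Socs3, an inhibitor of cytokine signalling, rose by 2.85 (SE 0.60), Cd86, a costimulatory ligand, fell by 1.54 (SE 0.22), and 8 were not called. Over all genes the share called was 17.1%, near that of the classical genes and of the factors that follow. Of 17 factors known to act on Arg1 or Nos2, Cebpb rose by 2.30 (SE 0.37), Hif1a by 1.58 (SE 0.26) and Stat3 by 1.01 (SE 0.23), Irf4 fell by 2.83 (SE 0.43), and 13 were not called, among them Stat6 at 0.07 (SE 0.16). Chid1 was called higher among 2 tested chitinase-like and resistin-like relatives, at 0.95 (SE 0.20). These values moved together with the mix of subtypes given above, and the summed level of cardiomyocyte markers in myeloid nuclei was also lower after injury, at a mean of 6006 CPM in sham, 2328 CPM in I/R and 2017 CPM in SBP. The summed levels of other marker lists moved as well. In sham, I/R and SBP they had means of 1143, 330.2 and 571.5 CPM for B cell markers, 620.2, 157.4 and 208.3 CPM for dendritic cell markers, and 117.5, 648.5 and 326.5 CPM for neutrophil markers. The part of any of these in the list values was not tested.

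In SBP against I/R 0 genes of these 7 lists were called by limma. Against sham, where 12% of all 10892 genes tested were called, SBP had calls of 2 higher among 5 tested in the transport list. There were 3 higher and 1 lower among 11 in the alternative list, 0 higher and 1 lower among 10 in the classical list, and 2 higher and 1 lower among the 17 factors. With I/R replicate 2 left out, an alternative chosen after seeing the data, the I/R against sham calls were 3 higher in the transport list, 4 higher in the polyamine list, 2 higher and 2 lower in the alternative list, 1 higher and 1 lower in the classical list, and 3 higher and 1 lower among the factors, where 10.9% of all genes tested were called. With I/R replicate 1 left out, where 17.2% of all genes were called, they were 2 higher, 6 higher and 1 lower, 3 higher and 2 lower, 1 higher and 1 lower, and 4 higher and 1 lower in the same order. With libraries scaled to total UMIs the transport list kept 1 of its 2 calls and gained another.

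**Figure D5:**
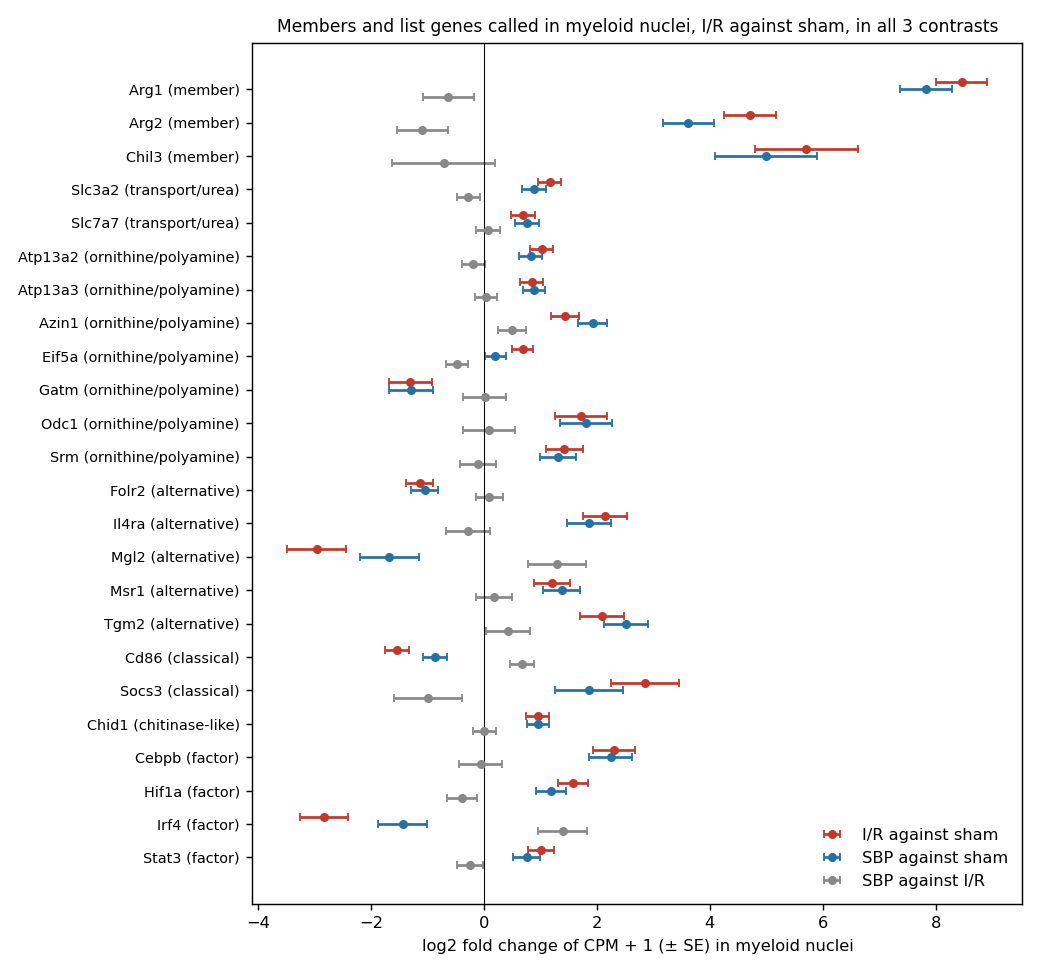
Log2 difference of CPM + 1 in myeloid nuclei (± SE, limma over 9 mice) for the 3 tested members and for the list genes called in I/R against sham, in red for I/R against sham, blue for SBP against sham and grey for SBP against I/R. Arg1, Arg2 and Chil3 have the largest differences from sham, the red and blue points of most genes lie close together, and no grey point was called.

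Genes whose level over myeloid sums was most like that of a member were sought over 60 points, each the sum of 1 mouse in 1 subcluster with at least 20 nuclei. Points of a mouse share its library. For Arg1 the highest Pearson correlations were with Thbs1 (0.91), which encodes the matrix protein thrombospondin-1, Clec4d (0.85) and Ecm1 (0.85). For Arg2 they were with Pirb (0.72), Gm19951 (0.72) and Cd300lf (0.71). Chil3 was most like Il1r2 (0.81), a decoy receptor for IL-1 that neutrophils carry, Cd300lf (0.76) and Stat3 (0.75), so Cd300lf was shared by Arg2 and Chil3. Nos2 was most like Saa3 (0.70), an acute phase gene, Lcn2 (0.64) and N4bp1 (0.63). I/R replicate 2 held 292 of the 303 myeloid Nos2 UMIs, so these Nos2 values lean on the points of that mouse. Retnla was too low for this comparison.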

How the data were processed

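Nuclei of 9 mouse hearts were profiled with droplet 3′ sNuc-seq. According to the study's methods and the submitters' processing notes, the authors counted UMIs with Cell Ranger (4.0 in the notes, where GRCm38 is the build), kept nuclei with over 200 genes and under 10% mitochondrial UMIs, and normalized with Seurat. Their methods also describe down-sampling of reads. The deposited values are natural log values, ln(1 + 10000 × UMIs / total UMIs of the nucleus). The log was undone and the smallest value of a nucleus taken as 1 UMI, and at least 99.999% of values in each library came out within 0.1 of a whole number. Clusters (Leiden, resolution 0.8, 2000 variable genes, Scanpy 1.11.5) were named from at least 3 markers seen in over 10% of nuclei. A subcluster with over 90% of its nuclei in 1 mouse was left unnamed, a limit chosen after seeing the data, as was one whose 10 leading genes held more markers of another class, cardiomyocytes included, than of its own. A repeat of the clustering with another random seed was added after seeing the data. Doublet scoring marked 0.173% of the nuclei, which is taken to mean that the caller did not work; a filter on the 2168 highest scores is among the alternatives.

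UMIs were summed per mouse and type (at least 20 nuclei), scaled by trimmed mean of M values and fitted as log2(CPM + 1) with limma 3.58.1 (trend, robust) over the mice. To be tested, a gene had to reach, in 3 mice, the CPM that 10 UMIs give at median depth, with 15 UMIs in all. Calls needed an adjusted p (Benjamini-Hochberg, all genes tested) of 0.05 or less and an absolute log2 difference over 0.25, and unless stated otherwise every adjusted p is from this test. The log scale understates changes of low genes. CPM levels are of each type's own total and are not comparable between genes, since 3′ counts are not per length. Binomial intervals and limits for a count of 0 cover counting error only. Simulated data with 200 genes changed by 2 on the log2 scale gave 99% recovery in myeloid (10812 genes) and 99% in resident macrophage-like sums (7649 genes), with 19 and 7 false calls. The changed genes were expected at over 20 UMIs, in I/R against sham only. All genes had 1 fixed spread between mice, narrower than that of Arg1 or Chil3 among the I/R mice. These recoveries therefore do not apply to the members or to SBP against I/R. From each list, the 3 called genes with the largest I/R against sham difference were named, and further genes were named after their values were seen. Members, lists and tests were chosen with earlier results of these data known. The study's text says that the 9 samples came from separate individuals and states more nuclei than the files hold.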

Additional observations from a re-analysis of the deposited data

Results flagged for a closer look

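Signals of members were also present in small cell classes that entered no comparison. Arg1 in T cell-like nuclei reached 15 UMIs in I/R (299 nuclei) and 12 UMIs in SBP (203 nuclei), against 3 UMIs in sham (269 nuclei), and each injured mouse was above every sham mouse. Chil3 in T cell-like nuclei gave 15 UMIs in I/R against 0 in sham. Nuclei of the Schwann-like cluster, which also holds smooth muscle and pericyte nuclei, gave 7 Arg1 UMIs and 3 Chil3 UMIs in SBP (85 nuclei) against 0 in sham (123 nuclei). In I/R replicate 2, T cell-like nuclei held 0.170 Arg1 UMIs per nucleus, and endothelial nuclei 0.118. None of these was tested.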

How the results depend on the processing

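In myeloid nuclei 187 of 189 alternative values for single members kept their direction and their side of the threshold. The exceptions were Chil3 in SBP against I/R, given below, and Chil3 in SBP against sham with a pseudocount of 5 CPM (3.01, adjusted p = 0.0514, limma, against a range of 8.86e-07 to 0.0514 over its alternatives). In the contrasts with sham these members had to differ, through the filter on low values, and in SBP against I/R the main fit called no gene. The count of kept values is therefore no independent support for the calls. In SBP against I/R no alternative called a member in any type, but the sign of 12 of 290 values turned. Leaving out 1 mouse moved the log2 difference of Chil3 from -1.98 to 0.13 in myeloid, -1.12 to 0.29 in endothelial, -1.20 to 0.52 in fibroblast, -1.12 to 0.43 in cardiomyocyte and -0.67 to 0.20 in injury macrophage-like nuclei, and that of Arg1 in the last from -0.91 to 0.33. Each was lowest without I/R replicate 1. In injury macrophage-like nuclei Chil3 was also 0.073 with the members among the variable genes and 0.0703 with another Leiden seed, against -0.06. Another clustering seed moved no count of called members, whereas the sizes of the subtypes moved.

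Counts of called members moved in the types with low levels. In endothelial and in fibroblast nuclei, I/R against sham, leaving out 1 mouse gave 2 to 3, since Arg2 lost its call or, in fibroblast nuclei, fell under the filter. In fibroblast nuclei, SBP against sham, 2 became 1 with a pseudocount of 5 CPM, and leaving out 1 mouse gave 1 to 2 (1 without sham replicate 1, sham replicate 3 or SBP replicate 2). In cardiomyocyte nuclei, I/R against sham, 1 became 2 with a pseudocount of 0.5 CPM, with types from marker scores and with means over nuclei of the deposited value, and 0 with a pseudocount of 5 CPM. Leaving out 1 mouse gave 0 to 2 (0 without any 1 sham mouse, 2 without I/R replicate 1). In cardiomyocyte nuclei, SBP against sham, 0 became 2 with only the 6 mice compared, and leaving out 1 mouse gave 0 to 2 (2 without I/R replicate 1 or 2). In resident macrophage-like nuclei, 0 became 2 in I/R against sham and in SBP against sham, both with no filter on low values and with the members among the variable genes, and leaving out 1 mouse gave 0 to 1 in I/R against sham (1 without I/R replicate 1). Thinning to 1000 UMIs left out the nuclei below that depth. It lowered the shares of myeloid nuclei, SBP minus sham, to 11.5 percentage points for Arg1, 1.31 for Arg2 and 3.42 for Chil3. Apart from the filter, which tests more genes when dropped, the cause of these moves was not tested.

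The correlations of the deviations of same-numbered mice ran from -0.18 to 0.21 in myeloid nuclei and from -0.32 to 0.30 over all types, so the numbers were not taken as pairs. Sham with SBP stood apart, since all 3 pairs were above 0 in each type where both groups entered, from 0.0015 to 0.17. In fibroblast nuclei these pairs were at 0.12 to 0.13, and the block left 2 members called. With the replicate block, called members in I/R against sham became 2 in cardiomyocyte nuclei, and no other count moved. Marker scores per nucleus were not run for the macrophage subtypes, and injury macrophage-like nuclei could not be tested against sham. With 3 mice per group, an exact test cannot go below 0.1, and Nos2 and Retnla in myeloid nuclei are limited by few UMIs.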

Other observations

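Relatives of the members that are no markers of alternative activation were detected as well. Retnlg, a resistin-like gene of neutrophils, gave 25, 457 and 83 UMIs over the sham, I/R and SBP hearts, and Retn gave 0, 19 and 16. Chil1, another chitinase-like gene, gave 14, 51 and 26 UMIs over the same groups. These sums are pooled over 3 mice and were not tested.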
